A study of Homo sapiens with 4 samples.

Results

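Cytoplasmic dynein 1 was described by the transcripts of its chains in 4 RNA sequencing libraries of a human cell line, 2 of them with lowered FYB1. The 9 genes were chosen by name, with their fold changes between these knockdown and control libraries already known, so every value of that contrast below is a description and supports nothing by itself. Of the 9 named genes 8 were among the 28274 genes of the table, and DYNLT3 was not analysed here. The line is called J-gammal in the labels. Both groups are this line: 2 libraries with the genotype "none", titled NC and given as untreated, and 2 libraries titled sh-FYB1 with the genotype FYB1 knockdown. The labels leave unsaid what NC stands for, whether the 2 knockdown libraries share 1 hairpin, and whether libraries come from separate cultures, so p-values measure only how far these libraries differ, and that spread may be technical. FYB1 encodes an adaptor between the T cell receptor and integrins.

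Dynein 1 is the motor that carries cargo along microtubules towards their minus ends, which in most animal cells lie at the centrosome. A dimer of heavy chains holds the motor domains, intermediate and light intermediate chains sit on the tails, and 3 families of light chains (roadblock, LC8 and Tctex) bind the intermediate chains. In T cells dynein is known for drawing the centrosome and clusters of T cell receptors towards the contact with an antigen-presenting cell. The motor works with dynactin, the LIS1 group of regulators and adaptors that couple it to cargo.

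The 4 libraries held 16693113 to 20251864 reads, recovered from the deposited FPKM values (reads scaled by the kilobases of merged exon of a gene and by a total per library). Recovered reads were 17597678 and 17216663 in the controls, above the totals behind the FPKM values (16648943 and 16789004). In the knockdown libraries they were 16693113 and 20251864, below totals of 18436617 and 20480491. Knockdown FPKM values are thus lower, relative to the controls, than with the sum of recovered reads as library total. FYB1, the target, read 17.6 and 20.1 FPKM in the controls against 6.18 and 4.53 FPKM after knockdown (library 1, then library 2, in each group here and below). All 9 T cell markers checked passed 1 FPKM in at least 1 library, while all 5 myeloid, all 5 epithelial or stromal and 4 of 5 B cell markers stayed below 1 FPKM in every library. The other B cell marker was CD79A, at 24.5 and 21.2 FPKM in the controls and 11.1 and 15.8 FPKM in the knockdown libraries. The summed T cell markers stood at 1445 and 1338 FPKM against 1062 and 1303 FPKM. Within this sum CD3D was at 478 and 419 FPKM against 224 and 299 FPKM, and TRAC at 400 and 373 FPKM against 406 and 459 FPKM. Of the 9 markers 7 were lower and 2 higher in the knockdown libraries, and with quantile normalization 6 were lower and 3 higher. The part of these markers in the results below was not tested. In bulk RNA of 1 line, fewer cells that make a marker and less of its RNA per cell cannot be told apart.

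DYNLRB1 was the chain that differed most between the groups. It encodes the roadblock light chain, which sits on the dynein intermediate chains (ENSG00000125971, chromosome 20, 34516409 to 34540958, plus strand, hg38). Its level was 22.3 and 21.1 FPKM in the controls against 38.4 and 51.0 FPKM after knockdown, from 914, 870, 1741 and 2570 reads. Both knockdown libraries lay above both controls, and the 2 knockdown libraries differed from each other by more than the controls did. The knockdown mean of 44.7 ± 8.93 FPKM (SD, n = 2) was 2.06 times the control mean of 21.7 ± 0.885 FPKM. DYNLL1 went the other way. It encodes an LC8 light chain, a small dimer that also binds many proteins outside dynein (ENSG00000088986, chromosome 12, 120469850 to 120498493, plus strand). Its level was 58.1 and 51.5 FPKM in the controls against 33.6 and 41.8 FPKM after knockdown, from 2861, 2555, 1831 and 2530 reads. Both knockdown libraries lay below both controls, and the knockdown mean of 37.7 ± 5.79 FPKM was 0.688 of the control mean of 54.8 ± 4.70 FPKM.

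The start regions of these 2 genes are shown because their transcripts differed most among the chains and in opposite directions. Each run covers 250 bases before to 50 after a RefSeq gene start on GRCh38.p14, in the sense of the gene, and of 2 RefSeq starts for each gene the one with more GENCODE 29 transcript starts within 50 bases was taken (4 for DYNLRB1, chr20:34516172-34516471, and 6 for DYNLL1, chr12:120495863-120496162, both plus strand). Capitals mark matches, on either strand, to 6 motifs: the CCAAT box (CCAAT), the GC box (GGGCGG), the TATA box (TATAAA), the E-box (CACGTG), the cyclic AMP response element (TGACGTCA) and the core of the NRF1 motif (GCGCANGCG).
DYNLRB1: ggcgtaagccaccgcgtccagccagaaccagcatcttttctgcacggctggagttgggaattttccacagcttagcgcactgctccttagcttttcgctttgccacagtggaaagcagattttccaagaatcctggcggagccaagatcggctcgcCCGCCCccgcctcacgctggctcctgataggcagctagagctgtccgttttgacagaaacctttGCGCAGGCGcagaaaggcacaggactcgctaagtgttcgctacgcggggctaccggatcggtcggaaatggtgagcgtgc
DYNLL1: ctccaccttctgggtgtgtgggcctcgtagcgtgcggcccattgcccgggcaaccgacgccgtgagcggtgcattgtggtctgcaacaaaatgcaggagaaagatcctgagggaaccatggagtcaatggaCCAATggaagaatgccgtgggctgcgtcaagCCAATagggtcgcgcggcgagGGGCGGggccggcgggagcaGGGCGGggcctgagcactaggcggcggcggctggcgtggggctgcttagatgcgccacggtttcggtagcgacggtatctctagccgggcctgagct

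With the RefSeq start used as 0, the DYNLRB1 window held a GC box on the minus strand from -94 to -89 and an NRF1 core from -30 to -22. For DYNLL1 the start used, at 120496113, lies well inside the gene span given above. Its other RefSeq start, at 120469842, lies beside the first base of that span. The DYNLL1 window held CCAAT boxes from -119 to -115 and from -88 to -84, and GC boxes from -67 to -62 and from -47 to -42. The other RefSeq start of DYNLL1 had an NRF1 core and no CCAAT box, and the other start of DYNLRB1 had a CCAAT box and no NRF1 core. The table used had 11 such windows for the named genes, DYNLT3 included and DYNLL2 not. A GC box was in 10 of the 11, against 45.0% of 35116 windows of the same length, a CCAAT box in 3 (34.6%), an NRF1 core in 4 (7.52%), a TATA box in 1 (11.5%), and the E-box and cyclic AMP element in 0 (7.26% and 1.85%). The matches printed do not overlap each other. Some genes have 2 windows, and a match only describes letters in a window.

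The other light chains moved less. DYNLL2, the second LC8 chain, nearly identical in protein to DYNLL1 (ENSG00000264364, chromosome 17, 58083415 to 58095536, plus strand), stood at 28.6 and 27.4 FPKM in the controls and 29.2 and 34.2 FPKM in the knockdown libraries. Knockdown library 1 was only just above control 1, so the groups were apart but close. DYNLT1, a Tctex light chain (ENSG00000146425, chromosome 6, 158636474 to 158644739, minus strand), stood at 12.3 and 10.2 FPKM in the controls and 8.52 and 10.3 FPKM in the knockdown libraries. Its groups overlapped, since knockdown library 2 was above control 2.

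DYNC1H1 encodes the heavy chain, the ATPase that walks on microtubules (ENSG00000197102, chromosome 14, 101964510 to 102056443, plus strand). It stood at 6.77 and 7.73 FPKM in the controls against 9.47 and 8.09 FPKM after knockdown, from 4154, 4781, 6435 and 6104 reads. Control 2 and knockdown library 2 lay close together, and the groups did not overlap. DYNC1I2, the intermediate chain that carries the light chains and contacts dynactin (ENSG00000077380, chromosome 2, 171687409 to 171748420, plus strand), stood at 8.64 and 9.59 FPKM in the controls and 7.50 and 8.41 FPKM in the knockdown libraries. Both knockdown libraries lay below both controls, with knockdown library 2 just under control 1. The processed pseudogene DYNC1I2P1, which could share reads with it, held 32 to 49 reads per library against 649 to 809 for DYNC1I2.

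The light intermediate chains bind the cargo adaptors, and the knockdown means of their 2 genes lay on opposite sides of the control means. DYNC1LI2 (ENSG00000135720, chromosome 16, 66720893 to 66751798, minus strand) stood at 12.6 and 13.5 FPKM in the controls and 18.3 and 15.4 FPKM in the knockdown libraries, with the knockdown mean 1.29 times the control mean. DYNC1LI1 (ENSG00000144635, chromosome 3, 32525971 to 32570874, minus strand) stood at 9.30 and 8.47 FPKM in the controls and 8.04 and 8.44 FPKM in the knockdown libraries. Knockdown library 2 and control 2 of DYNC1LI1 were nearly equal, and with the sum of recovered reads as library total its log2 fold change turned to 0.03.

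**Figure D1:**
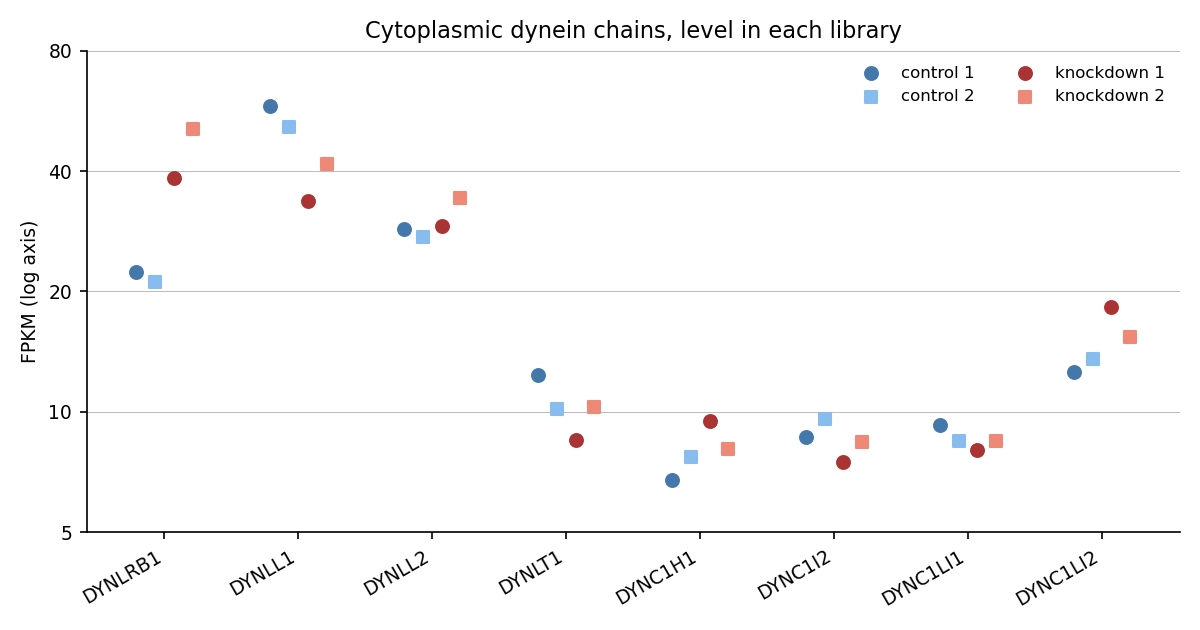
FPKM (log axis) of the 8 dynein chains in each of the 4 libraries, blue for controls and red for knockdown, circles for library 1 and squares for library 2. DYNLRB1 lies at 38.4 and 51.0 FPKM after knockdown, above its controls (21.1 to 22.3 FPKM), DYNLL1 lies below its controls, and the other chains differ less.

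The groups did not overlap for 7 of the 8 chains. Of all 13172 genes tested 60.6% had groups that did not overlap, and since the contrast chose the chains nothing is read from the count. The 8 chains split evenly, 4 with higher and 4 with lower means in the knockdown libraries, and their median log2 fold change of 0.04 stood beside -0.03 for all genes tested. With the sum of recovered reads as library total the split was 5 and 3, and the medians 0.17 and 0.08. After a correction for exon length and GC content the split was 3 higher and 5 lower, with a median of -0.09 beside -0.0016 for all genes.

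In a fit across all 13172 genes by limma-trend on log2(FPKM + 1), with p-values adjusted by the Benjamini-Hochberg method and a threshold of 0.05, 0 of the 8 chains were called and 3 had an unadjusted p under 0.05, as did 3088 of all 13172 genes (23.4%). Over all genes this fit called 0.205% (0.0683% higher and 0.137% lower in the knockdown libraries). Limma-voom on the recovered reads called 2 of the 8, DYNLRB1 higher and DYNLL1 lower, where it called 7.74% of all genes (1.94% higher and 5.8% lower). Because the chains were chosen with this contrast known, nothing is read from these counts. The log2 fold change of DYNLRB1 on the log2(FPKM + 1) scale was 1.00 ± 0.16 (SE), and limma-trend gave an adjusted p of 0.0949. On recovered reads it was 1.03 ± 0.15, where limma-voom gave an adjusted p of 0.00517, and 235 of the 13172 genes, DYNLRB1 included, had a fold change at least as high. DYNLL1 had a limma-trend log2 fold change of -0.53 ± 0.15 (adjusted p = 0.148) and a limma-voom one of -0.55 ± 0.14 (adjusted p = 0.0378). With the sum of recovered reads as library total the limma-trend log2 fold changes were 1.13 for DYNLRB1 and -0.40 for DYNLL1. The voom call of DYNLRB1 was kept without any 1 library (adjusted p of 0.00134 to 0.0125, log2 fold change 0.82 to 1.23). That of DYNLL1 ended without control 1 (adjusted p = 0.421), without control 2 (0.0902) and without knockdown library 1 (0.114), and also with quantile normalization (0.0698) and with the sum of recovered reads as library total (0.0688).

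Among the chains that neither fit called, DYNC1LI2 had a limma-voom log2 fold change of 0.36 ± 0.13 (adjusted p = 0.10), DYNC1H1 0.28 ± 0.14 (0.206) and DYNLL2 0.17 ± 0.13 (0.391). The lower means gave -0.26 ± 0.15 for DYNLT1 (limma-voom adjusted p = 0.296), -0.20 ± 0.13 for DYNC1I2 (0.360) and -0.11 ± 0.12 for DYNC1LI1 (0.60). Without knockdown library 2, limma-voom also called DYNC1LI2 (0.49, adjusted p = 0.0137) and DYNC1H1 (0.39, adjusted p = 0.0438) higher.

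Exon length moved with the fold changes over all genes, though not evenly. The 2635 shortest tested genes, with up to 1750 bases of merged exon, had a median log2 fold change of -0.05. The median log2 fold change was -0.17 for the 2634 tested genes with 1751 to 3466 bases of merged exon and 0.11 for the 2635 with 7539 or more (Spearman correlation of 0.22 across the 13172 genes, which are not independent). DYNLRB1, with 2460 bases, and DYNLL1, with 2957, fall in the class of 1751 to 3466 bases, and DYNC1LI2, with 8278, and DYNC1H1, with 36852, in the longest class. After a smooth trend on length and GC content was removed, the limma-trend log2 fold change of DYNLRB1 was 1.18 ± 0.09 (adjusted p = 0.0221), that of DYNLL1 -0.36 ± 0.08 (0.0758) and that of DYNC1LI2 0.27 ± 0.08 (0.119). DYNC1H1 went to -0.03 ± 0.07, on the other side of 0. The log2 fold change of DYNLRB1 was thus no smaller with the correction than without it, while that of DYNC1H1 was close to 0. Whether length or GC content has a part in either difference was not tested.

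**Figure D2:**
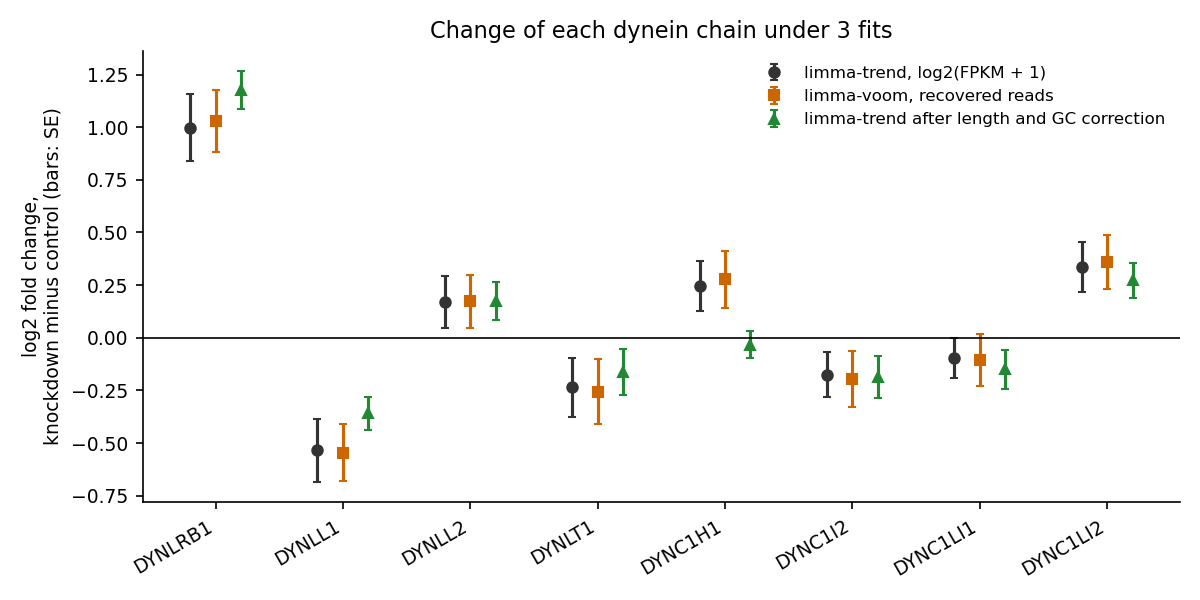
Log2 fold change, knockdown minus control, of each dynein chain under 3 fits: limma-trend on log2(FPKM + 1), limma-voom on recovered reads, and limma-trend after the length and GC correction. Points are estimates and bars are standard errors. DYNLRB1 lies between 1.00 and 1.18 in all 3, DYNLL1 between -0.55 and -0.36, and DYNC1H1 moves to -0.03 after the correction.

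Ratios of chains within a library do not depend on the library totals. DYNLRB1 over DYNLL1 was 0.384 and 0.409 in the controls against 1.14 and 1.22 after knockdown. The roadblock transcript was thus below the LC8 transcript in both controls and above it in both knockdown libraries. DYNLRB1 over DYNC1I2, the chain that carries it, was 2.58 and 2.20 against 5.12 and 6.06, and DYNLRB1 over DYNC1H1 was 3.30 and 2.73 against 4.05 and 6.31. The ratio to DYNLT1, another light chain, went from 1.81 and 2.07 to 4.51 and 4.95. None of these 4 ratios overlapped between the groups. All 4 divide DYNLRB1, the chain that differed most, so they are not independent and nothing is read from the count.

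Within the LC8 family DYNLL1 made up 67.0% and 65.3% of the summed FPKM of DYNLL1 and DYNLL2 in controls against 53.5% and 55.0% after knockdown. Within the light intermediate chains DYNC1LI2 made up 57.6% and 61.5% in controls against 69.5% and 64.5% after knockdown. Neither share overlapped between the groups. With 2 libraries a group an exact permutation test cannot give a two-sided p below 0.333, so these ratios are given as values.

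**Figure D3:**
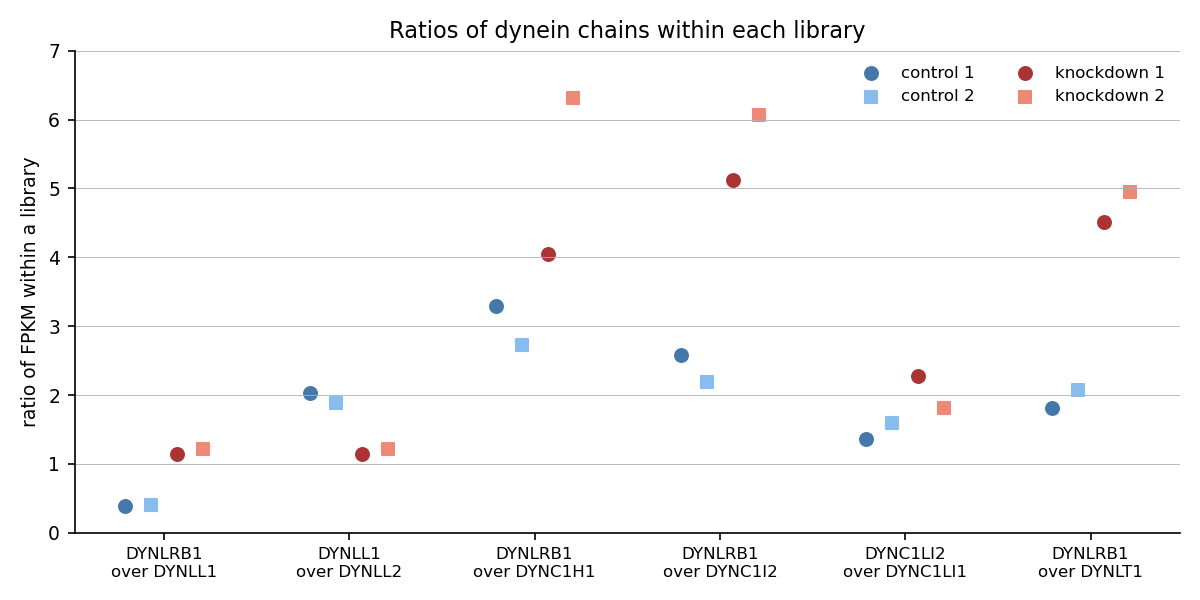
Ratio of the FPKM of 2 dynein chains within each library (linear axis), blue for controls and red for knockdown, circles for library 1 and squares for library 2. DYNLRB1 over DYNLL1 goes from 0.384 and 0.409 to 1.14 and 1.22, and DYNLL1 over DYNLL2 from 2.03 and 1.88 to 1.15 and 1.22.

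In the controls the chains were ordered DYNLL1, DYNLL2 (mean 28.0 FPKM), DYNLRB1, DYNC1LI2 (13.1), DYNLT1 (11.3), DYNC1I2 (9.11), DYNC1LI1 (8.88) and DYNC1H1 (7.25). Neighbours in this order had ranges that did not overlap, except DYNC1I2 and DYNC1LI1. In the knockdown libraries DYNLRB1 came first, and its range overlapped that of DYNLL1, as that of DYNLL1 overlapped that of DYNLL2 (means of 44.7, 37.7 and 31.7 FPKM). FPKM divides by the merged exon of all transcripts of a gene, which for most chains is longer than 1 transcript. The principal coding transcript of DYNLL1 has 814 of 2957 bases, that of DYNLRB1 675 of 2460, and that of DYNC1H1 20003 of 36852 in 78 exons, while that of DYNLL2 spans all 6805. If every read came from the principal transcript, the control levels per kilobase would be 199 for DYNLL1, 79.1 for DYNLRB1, 45.7 for DYNLT1, 28.0 for DYNLL2, 24.0 for DYNC1LI2, 21.8 for DYNC1LI1, 16.4 for DYNC1I2 and 13.4 for DYNC1H1. By either length DYNLL1 was the most abundant and DYNC1H1 the least abundant chain in the controls, and the place of DYNLL2 depended on the length used.

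In GENCODE 29 no exon base of DYNLRB1 or DYNLL1 is shared with another gene. Exons of DYNC1LI2 share 1790 bases with the antisense gene AC018557.1, 47 with AC044802.1 on that strand, and those of DYNC1H1 share 1033 bases with AL118558.1 on the other strand. The sources used here do not give the use of strand in counting, so reads in these parts cannot be told apart.

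Genes beside DYNLRB1 on chromosome 20 were compared with it, because the chain stood out among its family. The nearest tested coding genes are ITCH, a ubiquitin ligase, and PIGU, a subunit of the enzyme that attaches GPI anchors. ITCH was at 12.8 and 12.3 FPKM in the controls and 16.4 and 12.6 FPKM in the knockdown libraries (limma-voom log2 fold change 0.19 ± 0.14). PIGU was at 13.3 and 13.2 FPKM and at 12.9 and 14.1 FPKM (0.02 ± 0.13). Of the 8 tested coding genes nearest to it, 4 on each side, limma-voom called none higher, beside 1.94% of all genes tested. The highest was NCOA6, a nuclear receptor coactivator, at 0.38 ± 0.13 (adjusted p = 0.0873). AHCY, the enzyme that breaks down S-adenosylhomocysteine, was called lower (-0.80 ± 0.16, limma-voom adjusted p = 0.0215), as were 5.8% of all genes tested. Around DYNLL1 on chromosome 12 the divergent neighbour SRSF9, a splicing factor, was at 46.3 and 45.3 FPKM in the controls and 29.2 and 41.4 FPKM in the knockdown libraries (-0.40 ± 0.16, limma-voom adjusted p = 0.126). COX6A1, a subunit of cytochrome c oxidase, was called lower (-0.73 ± 0.16, limma-voom adjusted p = 0.0277). It was the only 1 of these 8 neighbours that limma-voom called, beside 7.74% of all genes tested. TRIAP1 lay just short of the threshold at -0.53 ± 0.15 (limma-voom adjusted p = 0.0509), and RNF10 alone of the 8 was higher (0.16 ± 0.12).

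**Figure D4:**
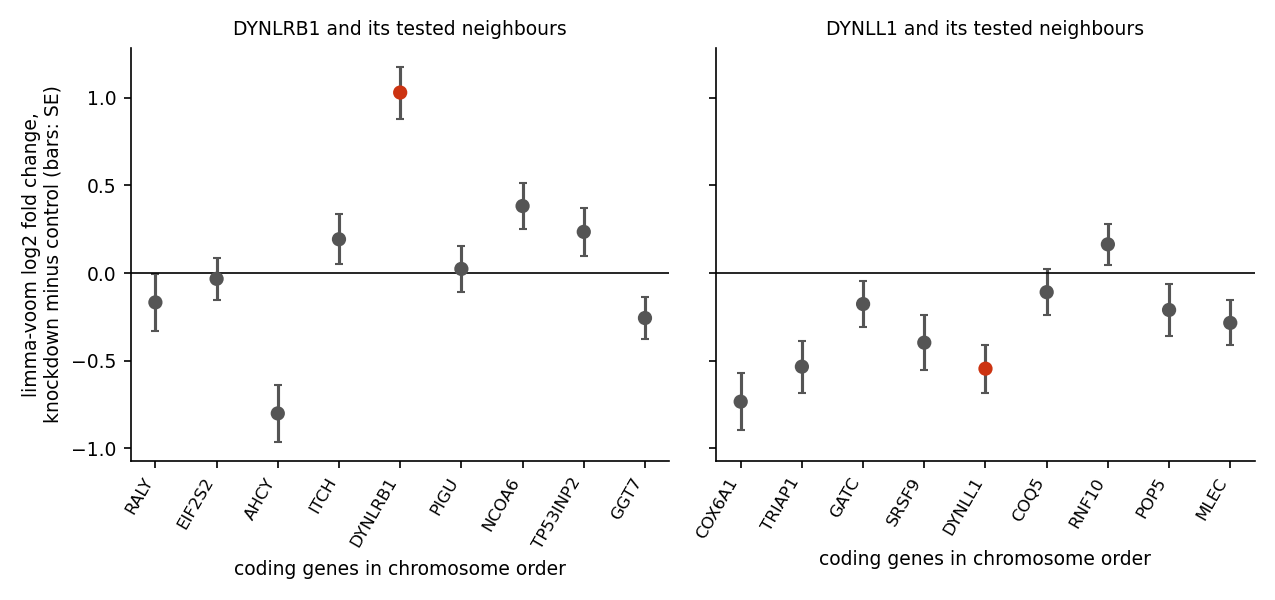
Limma-voom log2 fold change (points) with standard error (bars) of DYNLRB1 and DYNLL1, in red, and of the 4 nearest tested coding genes on each side, in grey, in chromosome order. DYNLRB1 stands at 1.03 between ITCH at 0.19 and PIGU at 0.02, while DYNLL1 at -0.55 lies next to SRSF9 at -0.40.

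The genes nearest in pattern were sought among the 7743 genes whose mean reached 5 FPKM, by Euclidean distance of centred log2(FPKM + 1) over the 4 libraries. Nearest to DYNLRB1 were TRAV16, a variable segment of the T cell receptor alpha chain (distance 0.12), CD52, a lymphocyte surface glycoprotein (0.19), and KLF2, a transcription factor of quiescent T cells (0.20). KLF2 stood at 27.8 and 28.2 FPKM in the controls and 53.4 and 58.6 FPKM in the knockdown libraries. Nearest to DYNLL1 were COX17, a copper chaperone of cytochrome c oxidase, and CAPNS1, the small calpain subunit (0.02 each), and CKS1B, a partner of cyclin-dependent kinases (0.03). Nearest to DYNC1H1 were ZNF326, KDM5A and FAM160B1 (0.02, 0.03 and 0.03). These 3 nearest genes of DYNLL1 and of DYNC1H1 lay closer to their chain than any gene lay to DYNLRB1, over only 4 libraries. The distance was not scaled by the size of a change, so it can be larger for a chain that differs more, and nothing is read from this.

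Chains of dynein outside the 9 were mostly low. Only 5 of 9 such genes reached the minimum mean, and neither limma-trend nor limma-voom called any (1 of the 5 had limma-trend p under 0.05 before adjustment, beside 23.4% of all genes tested). WDR34, an intermediate chain of dynein 2, the motor of cilia, was at 84.7 and 80.3 FPKM in the controls and 48.1 and 66.3 FPKM in the knockdown libraries (limma-voom adjusted p = 0.0506). Its partner WDR60 was at 3.15 and 2.98 FPKM and at 3.98 and 3.37 FPKM. DYNLRB2, the paralog of DYNLRB1, stayed between 0.04 and 0.13 FPKM. DYNC1I1, the paralog of DYNC1I2, was at 0.855 and 0.756 FPKM against 0.427 and 0.310 FPKM, from 65, 58, 36 and 29 reads, below the minimum mean for the test. Its groups did not overlap, with a ratio of knockdown to control means of 0.458. Both paralogs are named outside the rule, after their values were seen, as relatives of the chains described. Of 18 genes of axonemal dynein, the motor of beating cilia, 2 passed the minimum mean of 1 FPKM, and neither fit called any (1 of the 2 had limma-trend p under 0.05 before adjustment, beside 23.4% of all genes). DNAL4 was at 15.9 and 15.6 FPKM against 10.6 and 13.6 FPKM, and DNAL1 at 1.77 and 2.02 FPKM against 2.56 and 2.13 FPKM.

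Dynactin, the complex that makes dynein processive, had 10 of 12 subunits lower in the knockdown libraries, with a median log2 fold change of -0.21 beside -0.03 for all genes tested (-0.15 after the length and GC correction). With quantile normalization 6 were higher and 6 lower (median -0.03). Limma-trend called 0 of the 12, with 5 under 0.05 before adjustment beside 23.4% of all genes. Limma-voom called 1 of the 12, lower, where it called 5.8% of all genes lower. This was DCTN3, the subunit p24 of the shoulder, at 42.2 and 38.3 FPKM in the controls and 19.6 and 27.8 FPKM in the knockdown libraries (log2 fold change -0.78 ± 0.16, limma-voom adjusted p = 0.0213). Of 6 genes of LIS1 and other regulators 2 were higher and 4 lower (median -0.06), while with quantile normalization all 6 were higher (median 0.11). Limma-trend called 0 of the 6, with 1 under 0.05 before adjustment beside 23.4% of all genes. CLIP1, a protein of growing microtubule ends that binds dynactin, was the 1 that limma-voom called, beside 1.94% of all genes called higher. It stood at 2.17 and 2.63 FPKM against 3.62 and 3.49 FPKM (0.57 ± 0.13, limma-voom adjusted p = 0.0316). After the correction it had 0.29 ± 0.11 and was no longer called (limma-voom adjusted p = 0.105).

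Of 16 tested adaptors that activate dynein 12 were higher and 4 lower (median 0.16, and 0.13 after the correction), and 12 or 13 were higher under the other scalings. Limma-trend called 0 of the 16, with 4 under 0.05 before adjustment beside 23.4% of all genes. HOOK3, which links dynein to endosomes and other cargo, was the 1 that limma-voom called, beside 1.94% of all genes called higher. It stood at 2.85 and 3.71 FPKM in the controls and 6.28 and 4.31 FPKM in the knockdown libraries (0.67 ± 0.18, limma-voom adjusted p = 0.0484). This call ended after the correction (0.39 ± 0.11, limma-voom adjusted p = 0.0519), with quantile normalization (0.0708) and with the sum of recovered reads as library total (0.0682). Among 7 genes that place dynein at kinetochores and the cell cortex 4 were higher and 3 lower (median 0.08), with 0 called by either fit and 1 of 7 under 0.05 by limma-trend before adjustment, beside 23.4% of all genes. CENPF, a kinetochore protein that binds NDE1, was at 13.5 and 19.7 FPKM against 25.4 and 19.6 FPKM, and NUMA1, which anchors dynein at the cortex in mitosis, at 17.7 and 19.2 FPKM against 19.9 and 20.8 FPKM.

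Kinesin-1, which moves the other way along microtubules, had 4 tested genes, 2 higher and 2 lower, with 0 called by either fit and 1 of 4 under 0.05 by limma-trend before adjustment, beside 23.4% of all genes. KIF5B, its main heavy chain, was at 22.6 and 29.4 FPKM in the controls and 31.0 and 27.3 FPKM in the knockdown libraries, and KLC2, a light chain, at 11.3 and 11.6 FPKM against 10.1 and 12.2 FPKM. The tubulins, the track of both motors, had 8 of 9 tested genes lower (median -0.42, -0.22 after the correction and -0.09 with quantile normalization, where 7 were lower). Limma-trend called 0 of them, with 5 of 9 under 0.05 before adjustment beside 23.4% of all genes. Limma-voom called 3 of the 9, all lower, where it called 5.8% of all genes lower. TUBB2A was at 11.9 and 10.5 FPKM against 5.12 and 6.05 FPKM (-1.0 ± 0.17, limma-voom adjusted p = 0.0122). TUBB4B was at 233 and 210 FPKM against 124 and 164 FPKM, and TUBA1A at 107 and 99.0 FPKM against 65.8 and 79.8 FPKM. With quantile normalization and with the sum of recovered reads limma-voom called TUBB2A and no longer TUBB4B or TUBA1A. Tubulin genes are alike in sequence, so reads may be split between them.

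Partners of the LC8 light chains outside the motor were mostly higher, 6 of 7 tested (median 0.20 beside -0.03 for all genes tested). After the correction and with quantile normalization 5 were higher and 2 lower (medians 0.12 and 0.22). With the sum of recovered reads all 7 were higher. Their median merged exon length was 7673 bases, in the class where all tested genes had a median of 0.11. Either fit called 0 of them, and 1 of 7 was under 0.05 by limma-trend before adjustment, beside 23.4% of all genes. AMBRA1, a regulator of autophagy, was at 12.4 and 13.4 FPKM in the controls and 11.1 and 12.7 FPKM in the knockdown libraries, and the kinase NEK9 at 10.1 and 10.6 FPKM against 10.7 and 11.8 FPKM. ATMIN, a transcription factor known to drive DYNLL1 and named here after its values were seen, was at 9.02 and 8.28 FPKM against 10.3 and 9.88 FPKM. Its groups did not overlap, as for 60.6% of all genes tested, and neither fit called it (0.23 ± 0.12, limma-voom adjusted p = 0.248). Whether it has a part in the level of DYNLL1 was not tested. In these lists of partners, chosen with earlier results known, limma-voom called 6 genes in all, beside 7.74% of all 13172 genes tested. These were 1 of 12 tested genes of dynactin, 1 of 6 of LIS1 and other regulators, 1 of 16 adaptors and 3 of 9 tubulins. Limma-voom called none of the 5 other dynein chains, 7 kinetochore and cortex genes, 4 of kinesin-1, 7 LC8 partners and 2 of axonemal dynein. Without control 1 and without knockdown library 1 it called 0 of the 6, and without control 2 it called DCTN3, HOOK3 and TUBB2A.

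**Figure D5:**
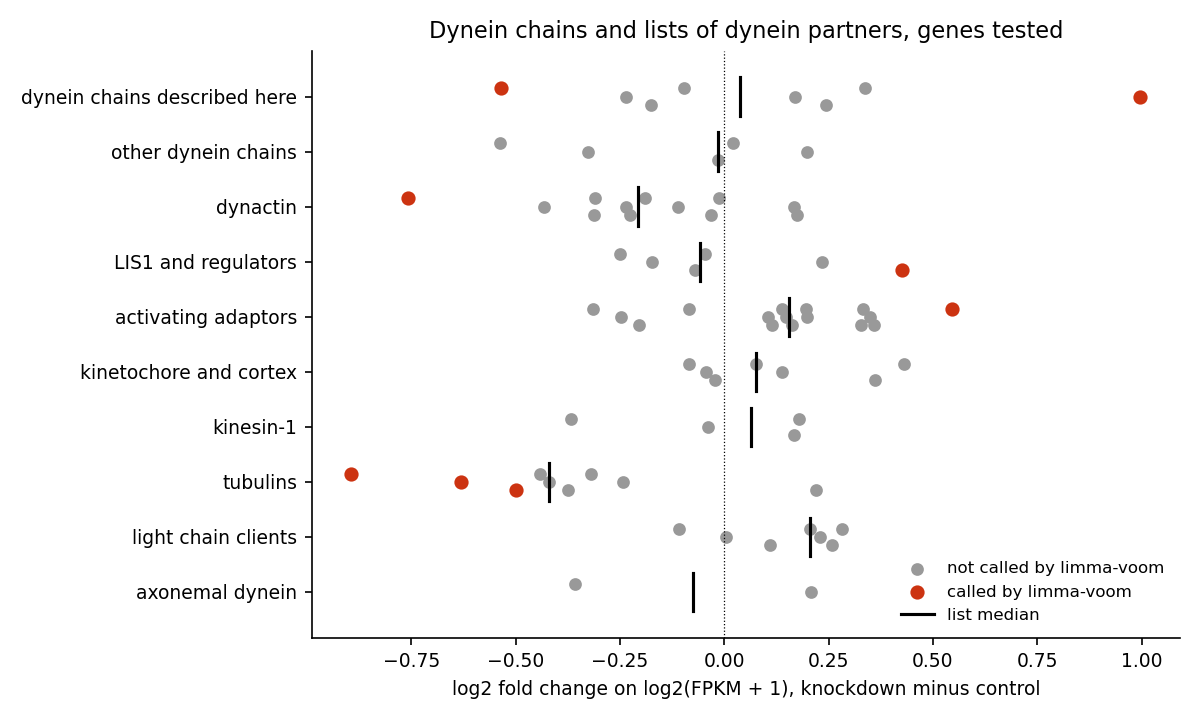
Log2 fold change on the log2(FPKM + 1) scale, knockdown minus control, of each tested gene in the dynein family and in the lists of partners. Red points were called by limma-voom at an adjusted p under 0.05, grey points were not, and black bars are list medians. Tubulins have a median of -0.42 and dynactin of -0.21, adaptors of 0.16, and DYNLRB1 at 1.00 is the highest point.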

How the data were processed

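RNA was measured in 2 control and 2 FYB1 knockdown libraries, made per the labels' protocols from Trizol RNA with an Illumina TruSeq kit. The submitters' processing notes name HISAT2 2.0.5 and hg38. The sources used here do not give the counting program, annotation or use of strand. The deposited table names no unit and was read as FPKM: multiplied by the merged exon length in GENCODE 29, 100.0% of values per library fell within 0.001 of a whole number of reads. All 28274 identifiers matched.

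Genes averaging at least 1 FPKM (13172) were tested by limma-trend (limma 3.58.1, R 4.3.3) on log2(FPKM + 1), with Benjamini-Hochberg adjustment over all of them and a threshold of 0.05. Limma-voom used the recovered reads and the authors' totals. Both were run on simulated reads with a fixed spread and no trend on length or GC content. That run therefore cannot show how reliable the calls in these libraries are. Fold changes on log2(FPKM + 1) understate changes of low genes. The members, lists and rules were chosen with earlier results of these data known. Partners named are up to 4 genes a list called by either fit, else the 2 with the highest mean. Neighbours, start regions and ratios were chosen with the values known. Alternatives covered normalization, low-value filters, pseudocounts, a replicate block, a loess correction on length and GC content (span 0.3), a 1.2-fold test and leaving out each library.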

Additional observations from a re-analysis of the deposited data

How the results depend on the processing

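With 2 libraries a group, counts of calls depended on the processing, and the cause was not tested. Limma-trend called 27 genes (9 higher), 45 with quantile normalization (18 higher), 76 with the sum of recovered reads as library total (28 higher), 181 among genes averaging 5 FPKM, 309 after the length and GC correction, 0 with no filter (3938 under 0.05 before adjustment), 0 in a test against 1.2-fold (907 under 0.05), and 0 to 406 with 1 library left out, with 0 without either knockdown library (2205 without the first and 4841 without the second under 0.05 before adjustment). In such fits the lone library of a group is assumed to vary like the other group. Limma-voom called 1019 (255 higher), 513 with quantile normalization (214 higher), 461 with the sum of reads (254 higher), 1624 after the correction, and 102 (without knockdown library 1) to 3877 (without knockdown library 2) with 1 left out.

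Of the chains, limma-trend called 0, and 1, DYNLRB1, with quantile normalization, the sum of reads, the 5 FPKM filter, the correction and without control 1 (0 to 1 with 1 library left out). Its adjusted p ranged from 0.00215 to 0.308 over all limma-trend alternatives run. Limma-voom called 2 chains, 1 with quantile normalization, 1 with the sum of reads, and 1 to 4 with 1 left out. Limma-trend called 0 partners and limma-voom 6, 3 with quantile normalization, and 0 to 25 with 1 left out. The log2 fold change of DYNC1H1 turned to -0.0326 (limma-trend) and -0.0876 (limma-voom) after the correction, and that of DYNC1LI1 to 0.0275 and 0.0294 with the sum of reads.

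The labels do not say whether the replicate numbers pair the libraries. Over genes, the difference of control 1 from 2 correlated at -0.21 with that of knockdown library 1 from 2. This shows no positive agreement by replicate number, and it cannot show how the libraries were made. With a replicate block limma-trend called 781 genes and 1 chain, and limma-voom 1072 and 2. A crossed block, chosen after seeing the data, gave 1910 limma-trend calls and 2 chains.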
